A study of Mus musculus with 12 samples.

Results

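The forkhead family was followed in mouse embryonic stem cells on their way to cardiomyocytes. A gene was taken as a member when the array's annotation names it Fox followed by a letter and a number, with 3 genes (Foxf1, Foxa2 and Foxh1) left out. This gave 34 members among the 18193 genes that a probe set names alone, and each gene was read from its brightest such probe set. Of these, 25 exceeded the array median on at least 3 of the 12 arrays and were tested, and the other 9 stayed below the array median in the mean of every stage. All 34 were matched to RefSeq genes by their gene identifier.

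RNA came from CGR8 cells, a mouse embryonic stem cell line grown without feeder cells, and was hybridized to Affymetrix Mouse 430 2.0 arrays, 3 per stage. ES-LIF(+) cells were kept in leukemia inhibitory factor (LIF), the cytokine that holds these cells undifferentiated, in 7.5% serum. ES-LIF(-) cells had spent 48 h without it. Cardiopoietic cells (CP), an intermediate on the cardiac path, and cardiomyocytes (CM) both came from stem cells primed in a cocktail of BMP, TGFβ, IL-13, IL3, IGF1, VEGF, EGF, FGF and IL6. CP then spent 5 days in 3% serum to which 30 ng/ml TNFα was added, CM 9 days in 20% serum, and both were enriched on a Percoll density gradient. All arrays thus share 1 cell line, and CP and CM differ in time, serum and TNFα together. The methods describe the 3 arrays of a stage as independent samplings.

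Forkhead factors bind DNA through a winged-helix domain and are classed by letter, with members of a class sharing that domain most closely. Class C and F factors pattern mesoderm and the mesenchyme of vessels and gut, class O factors drive stress, metabolic and cell cycle exit genes and are sent out of the nucleus when AKT phosphorylates them, Foxm1 drives mitotic genes, and class P and K factors mostly repress with corepressor complexes. In the embryonic heart Foxc1 and Foxc2 act in the outflow tract and second heart field, Foxp1 in valves and ventricular muscle, and Foxo1 in the developing vessels.

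Promoters are shown for 4 members. Foxf2 and Foxc1 stand next to each other on chromosome 13 and were both higher in CP and CM, Foxd3 was called in every comparison, and Foxa1 is the member whose promoter holds a forkhead core motif. RefSeq (GRCm38.p6) gave 26 promoters for 23 members, each 250 bases before and 50 after the start of a transcript, and those of Foxq1, Foxc2, Foxs1, Foxn2, Foxm1, Foxo4, Foxp2, Foxb1, Foxj1, Foxk1 and Foxl1 are not shown here. Capitals mark, on either strand, the forkhead core GTAAACA, the CCAAT box CCAAT and the GC box GGGCGG. The sequences are those of Foxf2 at chr13:31625566-31625865 on the plus strand, Foxc1 at chr13:31806396-31806695 on the plus strand, Foxd3 at chr4:99656049-99656348 on the plus strand and Foxa1 at chr12:57546062-57546361 on the minus strand, each written 5′ to 3′ along its gene.
Foxf2: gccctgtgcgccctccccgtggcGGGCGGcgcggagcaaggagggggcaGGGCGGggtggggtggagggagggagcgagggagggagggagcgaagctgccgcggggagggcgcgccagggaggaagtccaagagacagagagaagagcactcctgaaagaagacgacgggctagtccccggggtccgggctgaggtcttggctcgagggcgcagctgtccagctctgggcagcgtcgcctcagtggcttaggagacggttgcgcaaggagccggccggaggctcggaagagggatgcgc
Foxc1: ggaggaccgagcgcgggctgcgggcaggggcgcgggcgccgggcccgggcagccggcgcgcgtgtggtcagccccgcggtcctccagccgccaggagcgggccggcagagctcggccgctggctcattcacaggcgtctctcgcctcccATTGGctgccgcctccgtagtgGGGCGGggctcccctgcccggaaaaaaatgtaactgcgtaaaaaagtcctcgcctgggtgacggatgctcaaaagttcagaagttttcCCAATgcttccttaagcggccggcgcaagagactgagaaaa
Foxd3: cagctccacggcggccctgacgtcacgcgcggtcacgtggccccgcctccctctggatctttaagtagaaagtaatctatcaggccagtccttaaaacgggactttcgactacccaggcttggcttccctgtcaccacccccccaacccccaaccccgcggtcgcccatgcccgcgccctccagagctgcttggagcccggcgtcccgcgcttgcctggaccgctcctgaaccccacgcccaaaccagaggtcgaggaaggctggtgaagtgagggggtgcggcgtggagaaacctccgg
Foxa1: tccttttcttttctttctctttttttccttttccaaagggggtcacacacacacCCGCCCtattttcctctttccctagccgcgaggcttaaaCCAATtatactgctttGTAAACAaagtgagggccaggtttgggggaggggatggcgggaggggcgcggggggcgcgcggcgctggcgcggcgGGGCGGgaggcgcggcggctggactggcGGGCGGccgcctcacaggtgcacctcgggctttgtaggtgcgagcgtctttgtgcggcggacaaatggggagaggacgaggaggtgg

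The Foxf2 window held 2 GC boxes, the Foxc1 window 1 GC box and a CCAAT box on each strand, and the Foxd3 window none of the 3 motifs. In the Foxa1 window the forkhead core followed a CCAAT box and stood between 1 GC box upstream and 2 downstream. The forkhead core was present in 1 of the 26 family promoters and in 3.65% of all 32851 promoters of the same length. GC boxes were present in 18 of 26 against 35.7% of all, and CCAAT boxes in 12 of 26 against 37.4%. The family promoters were rich in CpG, with a median of 23.5 CpG per 300 bases and 64.2% GC, against 7 and 52.7% over all promoters. These matches describe letters in a window and were not tested against the signals.

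Signals are Microarray Suite 5.0 values on a linear scale, comparable between arrays for 1 probe set but not between genes. The median probe set read 101 to 111 on the ES-LIF(+) and ES-LIF(-) arrays and 128 to 144 on the CP and CM arrays, and arrays of a stage correlated at 0.967 to 0.974. Stage labels were set against marker genes. All 8 pluripotency markers fell in CM and all 8 cardiomyocyte markers rose (5 of these 8 exceeded the array median on no stem cell array), their summed signal going from 504 to 743 on the ES-LIF(+) arrays to 108782 to 123400 on the CM arrays. In CP the cardiomyocyte sum was 1732 to 1950 with 3 of 8 markers called higher, whereas the 8 fibroblast and mesenchyme markers all rose. Of the latter 8, 3 exceeded the array median on no stem cell array. The fibroblast and mesenchyme sum was 1058 to 1513 in ES-LIF(+), 94053 to 100830 in CP and 50119 to 51202 on the CM arrays. The pluripotency sum was 84188 to 87149 in ES-LIF(+), 64564 to 71002 in CP and 17776 to 24783 in CM. In CP 6 of the 8 pluripotency markers were called lower. Dppa5a, which was not called in CP, alone had a mean signal of 30080 there, against 23680 in ES-LIF(+). The summed blood markers ranged from 879 to 16566 across the CM arrays. The study, by its own measure of purity, counted most derived cells as progenitors in CP and as cardiomyocytes in CM. In bulk samples that may be mixed, fewer cells of a type and less RNA per cell cannot be told apart.

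**Figure D1:**
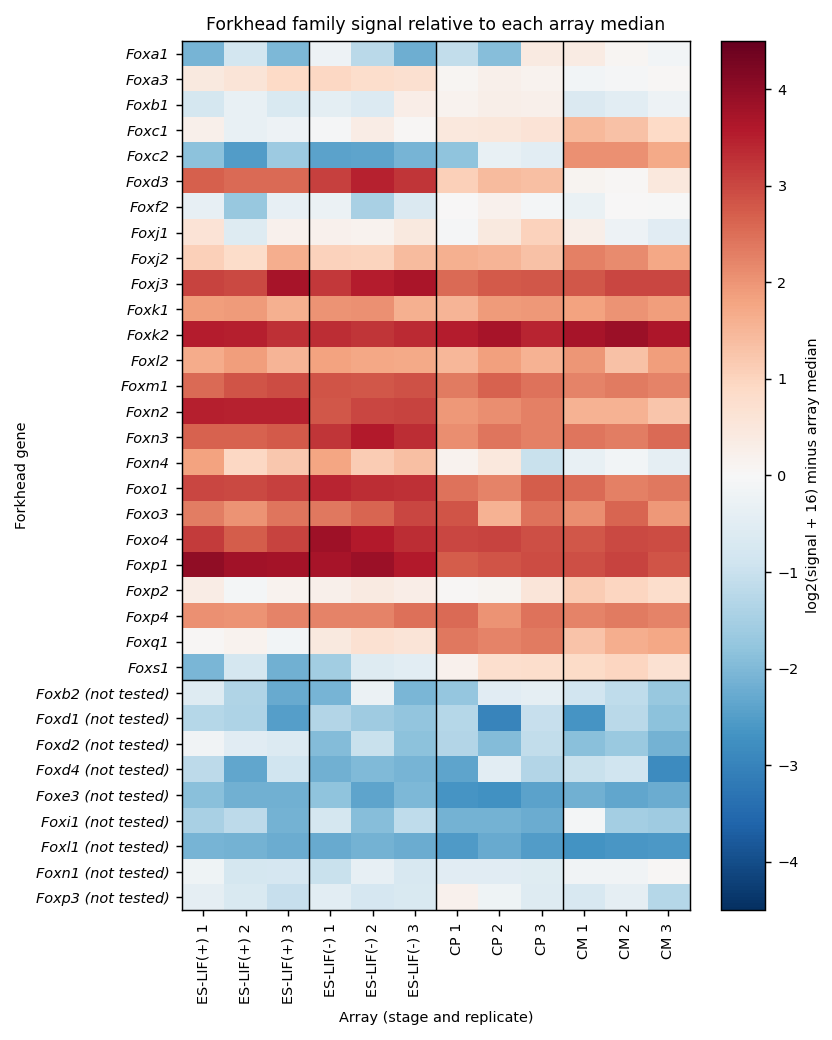
Signal of the 34 forkhead genes (rows, by class) on the 12 arrays (columns, by stage), as log2(signal + 16) minus the array's median, where red is above and blue below the median. Colours are to be read along a row, since probe sets of different genes are not comparable. Foxc1, Foxc2, Foxq1 and Foxs1 redden in CP and CM, Foxd3, Foxn2 and Foxn4 pale, and the 9 untested genes stay near or below the median.

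Among the 25 tested members, 18 (72.0%) changed across the 4 stages in the F test of limma, and 73.1% of all 13145 tested genes did. A gene was called in a comparison at an adjusted p under 0.05 over all tested probe sets and a fold above 1.5. In CP against ES-LIF(+), 6 members were called higher and 4 lower, where 18.7% and 13.3% of all tested genes were called, so the members' 24.0% and 16% lay near the background. In CM against ES-LIF(+) the counts were 9 higher and 4 lower (36.0% and 16%), beside 25.7% and 23.9% of all genes. Withdrawal of LIF called 3 higher and none lower, beside 4.0% and 3.68% (by limma 1 member had a negative change at an unadjusted p under 0.05, and a one-way analysis of variance called 0 lower). From CP to CM, 4 were called higher and 3 lower, beside 9.04% and 10.4%. Those called higher were 1 without CM array 1, and 2 without CP array 2 or CM array 2.

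The median log2 change of the 25 tested members was 0.32 in CP, 0.35 in CM and 0.20 in ES-LIF(-), each against ES-LIF(+), and the medians over all tested genes were 0.04, 0.06 and 0.03. Foxa1, Foxc2, Foxf2 and Foxs1 exceeded the array median only in CP or CM and so entered through the stages where they were high. Foxb1 exceeded it on the 3 CP arrays and on ES-LIF(-) array 3, and so passed the filter through CP. Foxb1, Foxc2, Foxf2 and Foxs1 are among the rises counted in CP, and Foxa1, Foxc2, Foxf2 and Foxs1 are among those in CM. The counts of rises and the medians are therefore given as a description. Across the comparisons 17 of the 25 (68.0%) were called at least once and 8 never, beside 60.1% of all tested genes called at least once. Relative to the array median, the mean was highest in ES-LIF(-) for 10 of the 25, in CM for 8, in CP for 5 and in ES-LIF(+) for 2, beside 32.5%, 25.3%, 12% and 30.3% of all tested genes. Of those members 5, 7, 3 and 2, in this order, were called in some comparison. Comparisons against ES-LIF(+) share its 3 arrays.

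The scaling of the arrays bore on the balance of calls. Median centring removed a shift of 0.28 in CP and 0.32 in CM against ES-LIF(+), and called 1585 of all genes higher and 3600 lower in CP in place of 2460 and 1752, and 2291 and 4609 in CM in place of 3372 and 3146. Among the members it called 5 higher and 4 lower in CP, and 7 higher and 6 lower in CM. No member's call turned to the opposite direction under either scaling.

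**Figure D2:**
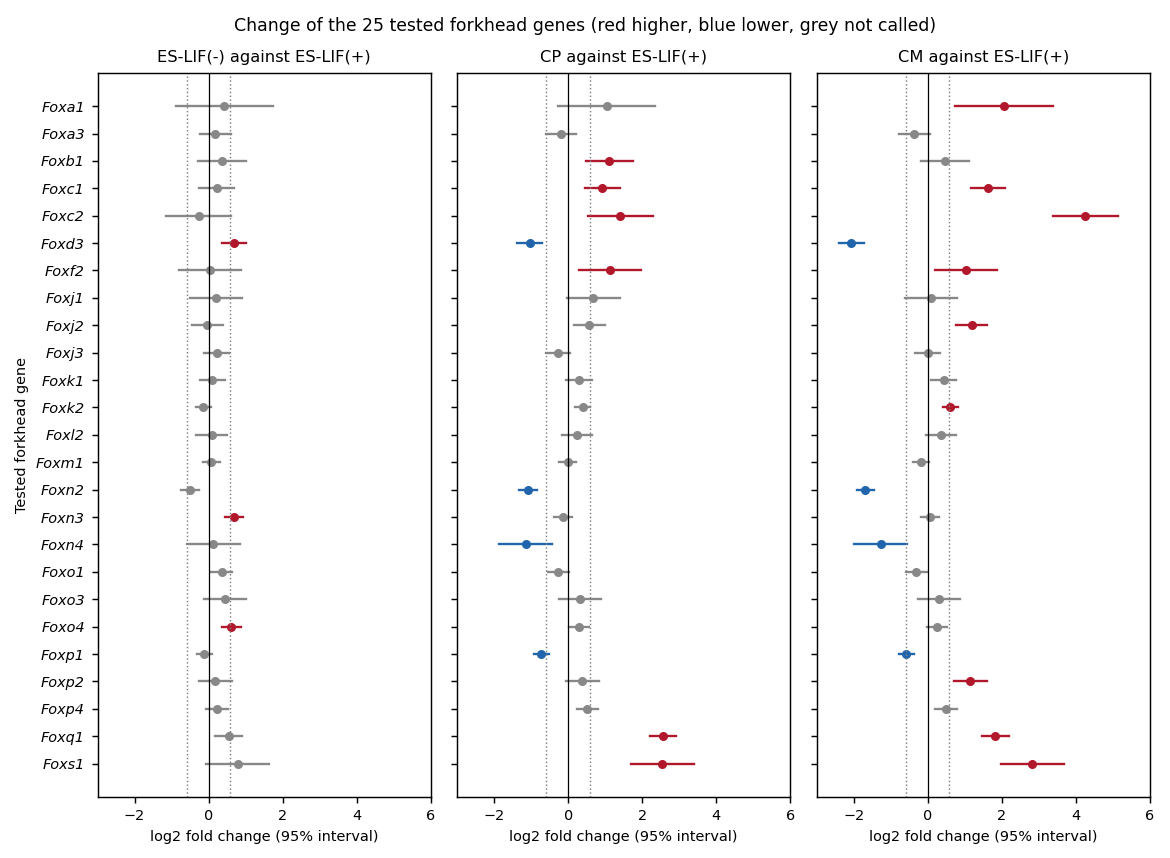
Log2 fold change of the 25 tested forkhead genes against ES-LIF(+) for ES-LIF(-), CP and CM (points), with 95% intervals from limma (lines). Red marks genes called higher, blue genes called lower and grey genes not called, and dotted lines mark the fold of 1.5. ES-LIF(-) carries 3 red points, CP 6 red and 4 blue, and CM 9 red and 4 blue.

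Class Q, F, C and S genes made up the rises in CP apart from Foxb1. In CM they made up those apart from Foxa1, Foxj2, Foxk2 and Foxp2. Foxc2, Foxf2 and Foxs1 passed the filter through the stages where they were high, so this is a description. Foxq1, Foxf2 and Foxc1 lie in this order on chromosome 13 with no protein-coding gene between them in RefSeq, and all 3 were called higher in CP and in CM. Foxq1 acts in hair shaft and gastric mucous cells, Foxf2 in gut, palate and brain pericyte mesenchyme, and Foxc1 in eye, skull, vessel and heart mesenchyme. Foxs1 is a small forkhead gene known from neural crest derivatives and pericytes. Foxc2 is required for aortic arch and lymphatic vessel development.

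Foxq1 read 112.9, 124.8 and 92.7 in ES-LIF(+), 153.3, 175.2 and 169.7 in ES-LIF(-), 767.8, 665.4 and 738.1 in CP, and 354.8, 432.1 and 516.8 in CM. The CP arrays stood above every other array, the CM arrays came next, and no 2 stages overlapped. The log2 change was 2.56 in CP (SE 0.17, adjusted p from limma 1.85e-08) and 1.83 in CM (adjusted p 2.09e-07), with CM below CP by a log2 difference of -0.73 (adjusted p 0.00388). The step on LIF withdrawal, 0.54 with a 95% interval of 0.17 to 0.90, missed the threshold (adjusted p 0.0535).

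Foxc1 read 129.1, 85.2 and 84.9 in ES-LIF(+), 106, 133.5 and 111.7 in ES-LIF(-), 197.2, 189.8 and 213.6 in CP, and 407.3, 343.1 and 279.8 in CM. ES-LIF(+) and ES-LIF(-) overlapped, CP lay above both, and CM above CP. The change was 0.92 in CP (SE 0.22, adjusted p from limma 0.00268) and 1.64 in CM (adjusted p 9.42e-06). The rise from CP to CM, 0.72 (adjusted p 0.0191), was no longer called when either of CP arrays 1 and 2 or of CM arrays 1 and 2 was left out.

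Foxf2 was dim throughout. It read 78.7, 23.1 and 74.4 in ES-LIF(+), 87.8, 27.3 and 63.7 in ES-LIF(-), 137.6, 150.9 and 123.6 in CP, and 108.6, 130.6 and 140.7 in CM. CP and CM lay above all the stem cell arrays, and of the 12 arrays it exceeded the median on 3. The changes of 1.14 in CP (adjusted p from limma 0.0265) and 1.03 in CM (adjusted p 0.033) lost their call under median centring (0.86 and 0.71), quantile normalization, the analysis of variance and without ES-LIF(+) array 2, as well as without CP array 1 or 2 (CP) and without CM array 2 or 3 or the filter on dim probe sets (CM).

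No tested flanking gene was called higher. On chromosome 13, Irf4, Exoc2 and Gmds were called in neither CP nor CM. Wrnip1 was lower in CM, at a mean signal of 907 ± 144 (SD, n = 3) against 1757 ± 233 (log2 change -0.95, adjusted p from limma 4.79e-06). Mylk4 was too dim to be tested.

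Foxc2 was highest in CM. It read 18.1, 6.1 and 21.5 in ES-LIF(+), 8, 7.3 and 13.2 in ES-LIF(-), 27, 98.5 and 91.4 in CP, and 626.3, 576.7 and 502.7 in CM. The stem cell stages overlapped near the floor of the arrays, CP array 1 lay just above them, and CM stood far above the rest. The change was 4.26 in CM (SE 0.41, 95% interval 3.38 to 5.13, adjusted p from limma 3.24e-07) with the pseudocount of 16, 5.29 with one of 1 and 3.0 with one of 64, and was called with each. It was 2.85 from CP to CM (adjusted p 8.53e-05). In CP it was 1.41 (adjusted p 0.0108), which was not called without CP array 2 or when the arrays of these 2 stages alone were fitted. The size of these changes rests on stem cell signals far below the array median, and Foxc2 exceeded that median only in CM. Foxl1, the next protein-coding gene to Foxc2 on chromosome 8 and a factor of gut mesenchyme, read 7.6 to 14.2 on all arrays.

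Foxs1 read 13.4, 58.1 and 10.4 in ES-LIF(+), 26.1, 63.4 and 73.4 in ES-LIF(-), 159.6, 231.7 and 244.2 in CP, and 261.3, 266 and 242.1 in CM. CP and CM lay above all the stem cell arrays and overlapped each other. The change was 2.54 in CP (SE 0.40, adjusted p from limma 9.46e-05) and 2.82 in CM (adjusted p 1.82e-05). Both calls held in each of the alternatives run.

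**Figure D3:**
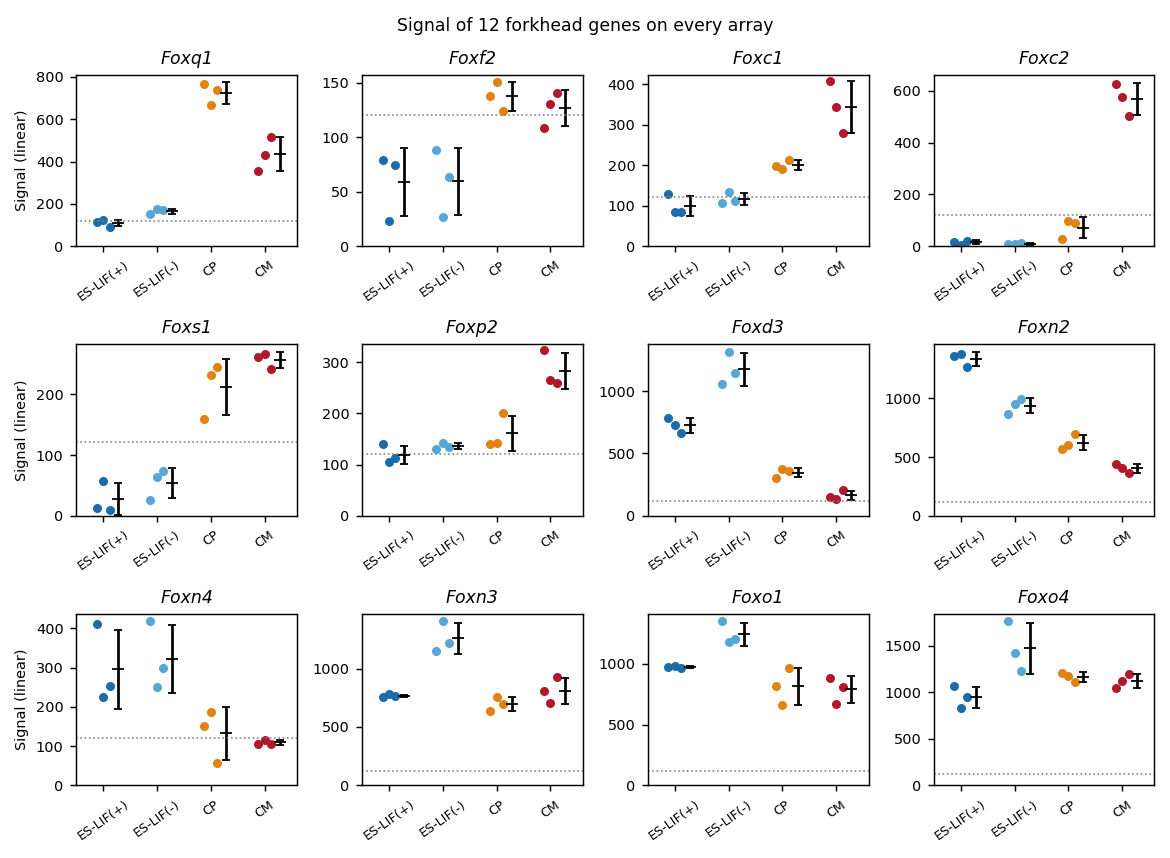
Linear signal of 12 forkhead genes on every array, by stage (points), with the mean and SD of 3 arrays (black bars) and the average array median (dotted line). Each panel has its own axis. Foxq1 peaks in CP, Foxc2 is highest in CM, Foxd3 peaks in ES-LIF(-) and then falls, and Foxn2 steps down at each stage.

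Genes linked to FOXC factors in mesoderm and vessels were counted from a list of 18, of which 17 were on the array and 10 bright enough to test. In CP 6 were called higher and 2 lower, beside 18.7% and 13.3% of all tested genes. In CM 7 were called higher and 2 lower, beside 25.7% and 23.9%. Of the 10, Tbx18, Msx2, Osr1, Cxcr4 and Cdh5 exceeded the array median on no stem cell array, so that these 5 entered through the stages where they were high and the counts of rises are a description. Osr1, a factor of intermediate and cardiac mesoderm, rose by 3.27 in CP and 5.0 in CM, and Tbx18, of the epicardium and somites, by 2.00 and 4.64, both from ES-LIF(+) signals far below the array median (means of 12.6 and 12.2). The chemokine receptor gene Cxcr4 rose by 2.49 and 2.36. Tcf15, a somite factor also active in stem cells primed to differentiate, was lower, with changes of -0.80 in CP and -2.72 in CM. These 4 genes had adjusted p values of 0.000903 or less in limma. The fibroblast and mesenchyme markers were also higher in CP and CM, as given above. From CP to CM, however, 5 of the 8 were called lower. Over that step Foxc1 and Foxc2 were called higher and Foxq1 lower, and Foxf2 and Foxs1 were not called. Of 6 tested mesothelial and epicardial markers, 4 were called higher in CP and in CM, Tbx18 among them. The sums of that list were 1432 to 3308 in ES-LIF(+), 11580 to 11914 in CP and 5130 to 6157 in CM. Of the 6, 2 exceeded the array median on no stem cell array, Tbx18 included. Of 6 tested endothelial markers, 2 were called higher and 2 lower in CP, and 3 and 2 in CM. Again 2 of the 6 exceeded the array median on no stem cell array. The part of these cell types in the forkhead changes was not tested.

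Members of several classes were lower in differentiated cells. Foxd3, a factor of pluripotent cells and later of neural crest, was called in all comparisons. It read 785.6, 724.9 and 665.2 in ES-LIF(+), 1056.4, 1317.3 and 1147.1 in ES-LIF(-), 303.5, 372.3 and 361.5 in CP, and 152, 131.8 and 206.1 in CM. No stages overlapped, and the order was ES-LIF(-), ES-LIF(+), CP, CM. Foxd3 was higher by 0.68 on LIF withdrawal (adjusted p from limma 0.00984), lower in CP with a change of -1.04 (adjusted p 6.62e-05) and in CM with one of -2.07 (adjusted p 2.33e-08), and fell again from CP to CM (-1.03, adjusted p 0.000132). Without ES-LIF(-) array 2 the rise on LIF withdrawal was not called. Of the 8 pluripotency markers, 5 fell on LIF withdrawal.

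Foxn2 stepped down at every stage. It read 1359.5, 1380.3 and 1263 in ES-LIF(+), 863.5, 955.1 and 995.6 in ES-LIF(-), 569.5, 602.4 and 696.8 in CP, and 437.2, 408.6 and 363.9 in CM. No stages overlapped. The change was -0.50 in ES-LIF(-) (adjusted p from limma 0.00693, under the fold of 1.5), -1.08 in CP (adjusted p 1.39e-06) and -1.69 in CM (SE 0.11, adjusted p 4.31e-09).

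Foxn4, which acts in retinal and spinal progenitors, read 410.3, 223.9 and 253.5 in ES-LIF(+), 419.3, 250.6 and 297.8 in ES-LIF(-), 151.9, 186.5 and 58.1 in CP, and 105.8, 116.6 and 106.3 in CM. The stem cell arrays spread widely but lay above all CP and CM arrays. The change was -1.15 in CP (adjusted p from limma 0.0105) and -1.27 in CM (SE 0.33, adjusted p 0.00402), and the CP call was lost without ES-LIF(+) array 1.

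Foxp1, which restrains muscle cell proliferation in the developing heart, read 1945.7, 1731.8 and 1545.8 in ES-LIF(+), 1627.2, 1700.9 and 1467.9 in ES-LIF(-), 993, 1009.1 and 1123.3 in CP, and 1147.8, 1165.7 and 1128.5 in CM. All CP and CM arrays lay below all stem cell arrays. The change was -0.73 in CP (SE 0.096, adjusted p from limma 1.91e-05) and -0.59 in CM (adjusted p 7.5e-05). The CM change, close to the fold of 1.5, lost its call under quantile normalization (-0.54), with a pseudocount of 64 (-0.57), without ES-LIF(+) array 1 (-0.51) and without CM array 3 (-0.58), and the CP change over the mean of probe sets (-0.45). Of its 6 tested probe sets, 3 were called lower in CP and 5 in CM, with log2 changes in CM from -0.17 to -1.35. Foxp1 transcripts are known to be spliced differently in stem cells, and which part of the transcript each probe set reads was not examined.

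Of the other class P genes, Foxp2 was called higher in CM and Foxp4 missed the fold. Foxp2, a repressor that acts in lung and brain development, read 139.2, 104.3 and 113 in ES-LIF(+), 130.5, 142.9 and 135.1 in ES-LIF(-), 140.5, 141.4 and 200.6 in CP, and 323.9, 265 and 258.7 in CM. Only CM stood clear of the other stages. Its change was 1.15 in CM (SE 0.21, adjusted p from limma 0.000208) and 0.38 in CP (adjusted p 0.148), whereas a second tested probe set, at 40.3 ± 38.5 (SD, n = 3) in ES-LIF(+), was called higher on LIF withdrawal (1.3, adjusted p 0.0301), in CP (2.17) and in CM (2.89). Foxp4 passed the adjusted p but not the fold in CP (0.52, adjusted p 0.00569) and in CM (0.49, adjusted p 0.00642). Foxp3, the regulatory T cell factor, was not tested. Of 15 tested genes of FOXP partners and the NuRD and CtBP corepressors, 0 were called higher and 2 lower in CP (by limma 1 higher and 8 lower at an unadjusted p under 0.05, and 0 and 2 by the analysis of variance). In CM 1 was higher and 6 lower, among them the corepressor gene Ctbp2 (log2 changes of -0.95 in CP and -1.85 in CM) and the histone deacetylase gene Hdac1 (-0.63 and -1.14), at adjusted p values from limma of 2.11e-06 or less. The shares of all tested genes were 18.7% higher and 13.3% lower in CP, and 25.7% and 23.9% in CM.

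On LIF withdrawal Foxd3, Foxn3 and Foxo4 were called higher by their brightest probe sets, and Foxp2 by a dimmer one, as given above. Foxn3, a repressor tied to cell cycle checkpoints, read 759.7, 778.1 and 768.2 in ES-LIF(+), 1153.9, 1406.2 and 1216.7 in ES-LIF(-), 632.9, 756 and 699.9 in CP, and 804.2, 703 and 923.9 in CM. The ES-LIF(-) arrays lay above all others, while CP lay just below ES-LIF(+) and CM overlapped both. The rise was 0.70 (SE 0.11, adjusted p from limma 0.001), and CP was lower than ES-LIF(-), with a change of -0.84 (adjusted p 2.54e-05). Of 4 tested probe sets of Foxn3, 2 were called on LIF withdrawal, and the mean over its probe sets (0.51) was not.

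Foxo4, a class O factor, read 1062.3, 828.6 and 944.3 in ES-LIF(+), 1762.8, 1422.3 and 1225.4 in ES-LIF(-), 1205.3, 1174.2 and 1107.1 in CP, and 1049, 1126 and 1200.9 in CM. ES-LIF(-) lay above the other stages. The change of 0.62 (SE 0.12, adjusted p from limma 0.00412) was lost under quantile normalization (0.58), over the mean of its probe sets (0.14) and without ES-LIF(+) array 2 or ES-LIF(-) array 1. Foxo1, which acts in vessels, insulin response and stem cells, was also highest in ES-LIF(-). It read 970.3, 982 and 965.4 in ES-LIF(+), 1350.4, 1177 and 1201.4 in ES-LIF(-), 818.8, 659.5 and 963.8 in CP, and 884.8, 670.4 and 809.8 in CM. The ES-LIF(-) arrays were again above all others, and ES-LIF(+) lay above CP and CM, by the narrowest margin at CP array 3.

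Foxo1 was not called against ES-LIF(+), with changes of 0.35 in ES-LIF(-) (95% interval 0.06 to 0.63, adjusted p from limma 0.11), -0.27 in CP (-0.55 to 0.01, adjusted p 0.109) and -0.31 in CM (-0.59 to -0.03, adjusted p 0.056). Median centring made the CM change -0.63 and called it. Another of its 3 tested probe sets was called lower in CP (-0.73, adjusted p 0.000365) and CM (-0.87, adjusted p 4.15e-05). Foxo3, a class O factor of autophagy and quiescence, read 585.1, 500.5 and 604.6 in ES-LIF(+), 630.3, 719.2 and 988.9 in ES-LIF(-), 1063.9, 409.7 and 800.6 in CP, and 643.7, 861.5 and 604.9 in CM. Its CP arrays spanned the range of all other stages, and the F test gave an adjusted p of 0.465.

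CP was also set directly against ES-LIF(-), a comparison added after the values were seen, since CP cells had left LIF. Here 6 members were called higher and 5 lower (24.0% and 20%), beside 18.2% and 14.5% of all genes. Foxq1 (2.02), Foxs1 (1.75), Foxc2 (1.67), Foxf2 (1.11), Foxc1 (0.70) and Foxj2 (0.60) were higher, and Foxd3 (-1.72), Foxn4 (-1.28), Foxn3 (-0.84), Foxo1 (-0.61) and Foxp1 (-0.61) lower, at adjusted p values from limma of 0.0291 or less. Median centring gave 3 higher and 9 lower. Under both rescalings the calls of Foxj2 (0.33 by median centring and 0.32 by quantile normalization), Foxc1 (0.43 and 0.42) and Foxf2 (0.84 and 0.89) ended. Foxj2 was also lost with a pseudocount of 64, over the mean of probe sets and without ES-LIF(-) array 1 or 2 or CP array 1, Foxc1 with a pseudocount of 64, and Foxf2 in the analysis of variance and without ES-LIF(-) array 2 or CP array 1 or 2. Over the mean of probe sets Foxo1 (-0.55) and Foxp1 (-0.32) were not called, nor was Foxo1 without ES-LIF(-) array 1 or CP array 2, or Foxp1 without ES-LIF(-) array 2 or CP array 1.

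Genes linked to FOXO factors, and genes of kinases and other regulators that act on these factors, were read beside class O. Of 23 tested FOXO-linked genes, 5 were called higher and 3 lower in CP, 8 and 4 in CM, and 3 and 4 on LIF withdrawal. The shares of all tested genes were 18.7% and 13.3% in CP, 25.7% and 23.9% in CM, and 4.0% and 3.68% on LIF withdrawal. The medians were 0.02, 0.31 and 0.08, beside 0.04, 0.06 and 0.03 over all tested genes. The muscle ubiquitin ligase genes Trim63 and Fbxo32 rose in CM, by 3.39 and 2.80, and the autophagy gene Gabarapl1 rose in CP, by 1.83. Fbxo32 exceeded the array median on no stem cell array, so it passed the filter through later stages, where it was higher, and its rise is a description. Klf2, a quiescence and endothelial factor that is also expressed in stem cells, fell from a mean signal of 10362 ± 317 (SD, n = 3) in ES-LIF(+) to 2586 ± 693 on LIF withdrawal, 5688 ± 76.6 in CP and 1248 ± 160 in CM. Of 15 tested genes of the kinase input and other regulators, 2 were higher and 3 lower in CP, and 2 and 6 in CM. The same shares of all genes stand beside these counts. Not all 15 are kinase genes, and those called lower in CM include Sirt1 and the nuclear export gene Xpo1. Akt1, whose kinase phosphorylates FOXO factors, had mean signals of 991 in ES-LIF(+), 2878 in CP and 3478 in CM (log2 changes 1.52 and 1.80), while Sgk1, a related kinase gene, went from 4933 to 1764 and 1468 (-1.48 and -1.74). Sirt1, a deacetylase that acts on FOXO factors, was lower, at -1.05 and -2.75. These changes had adjusted p values from limma of 1.89e-05 or less for Trim63, Fbxo32, Gabarapl1, Akt1 and Sgk1, and of 2.93e-05 or less for Sirt1. Phosphorylation and location of FOXO proteins are not read by these arrays.

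Foxm1, which drives the genes of mitosis, was not called at any stage. It read 711.2, 883.9 and 873.8 in ES-LIF(+), 884.3, 823.4 and 883.3 in ES-LIF(-), 748.9, 896.6 and 802.2 in CP, and 704.8, 714.4 and 737.5 in CM. The first 3 stages overlapped, and the CM arrays lay below all CP arrays but on both sides of the lowest ES-LIF(+) array. The change was -0.01 in CP (95% interval -0.24 to 0.22, adjusted p from limma 0.953) and -0.18 in CM (-0.41 to 0.04, adjusted p 0.148). Median centring moved the CM change to -0.50 (adjusted p 0.00167), still under the fold of 1.5. Of its other 2 tested probe sets, 1 gave 0.09 in CP and 0.03 in CM, and the other -0.07 in CP and -0.73 in CM, the latter called lower (adjusted p 0.00364).

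Most mitotic genes linked to FOXM1 were called lower. Of 21 tested, 15 were called lower in CP and 19 in CM, and 9 were lower in CM than in CP. The medians were -0.69, -1.23 and -0.51. Of all tested genes, 13.3%, 23.9% and 10.4% were called lower in these comparisons. None was called higher in any of these comparisons (by limma 0 in CP, 1 in CM and 1 from CP to CM were higher at an unadjusted p under 0.05, and the analysis of variance called 0). On LIF withdrawal none was called in either direction, with a median of -0.02 (3 higher and 1 lower at an unadjusted p under 0.05 in limma, and 0 called by the analysis of variance). Nek2, a centrosome kinase gene, had a mean signal of 2594 ± 133 (SD, n = 3) in ES-LIF(+), 1036 ± 88.6 in CP and 649 ± 84.6 in CM, with log2 changes of -1.31 and -1.98. The kinetochore genes Bub1 (-1.02 and -1.77) and Cenpf (-1.04 and -1.51) were lower as well, as was the centromeric histone gene Cenpa in CP (-0.92, adjusted p from limma 4.62e-07 or less for these 4 genes). Whether Foxm1 changed less than these genes was not tested.

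**Figure D4:**
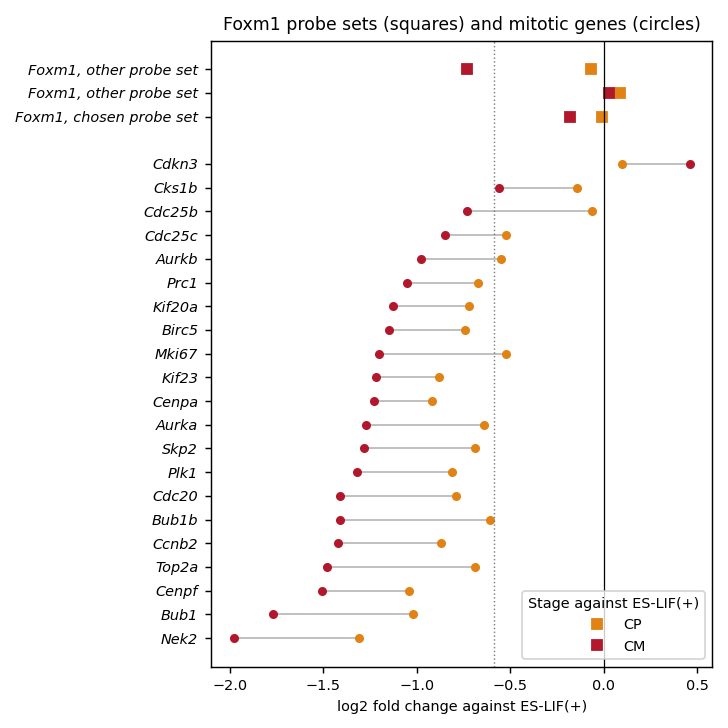
Log2 fold change against ES-LIF(+) in CP (orange) and CM (red) for the 3 tested probe sets of Foxm1 (squares) and the 21 tested mitotic genes (circles), with the CP and CM values of a gene joined by a line and the fold of 1.5 dotted. The chosen Foxm1 probe set lies at -0.01 and -0.18, and all mitotic genes except Cdkn3 lie further left in both stages.

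Foxj2 and Foxk2 were called higher in CM, and the other tested class J and K members (Foxj1, Foxj3 and Foxk1) were not. Foxj2, a widely expressed class J factor, read 245.2, 209.6 and 350.9 in ES-LIF(+), 241.7, 224.2 and 315.2 in ES-LIF(-), 443.7, 398.2 and 355.7 in CP, and 730.2, 620.6 and 519.2 in CM. CP lay above the stem cell stages, just so at its lowest array, and CM above CP. The change was 1.19 in CM (SE 0.20, adjusted p from limma 8.41e-05) and 0.57 in CP (adjusted p 0.026, under the fold of 1.5). Foxj1, the driver of motile cilia, read 69.3 to 288.8 across the arrays, and its change of 0.68 in CP (95% interval -0.03 to 1.39) was not called. Of 22 ciliary genes on the array 8 could be tested, of which 2 were higher and 3 lower in CP, and 1 higher and 5 lower in CM. The shares of all tested genes were 18.7% higher and 13.3% lower in CP, and 25.7% and 23.9% in CM. Of these 8, 3 exceeded the array median on no CP or CM array. They entered through the stem cell stages, where they were higher, so the counts of falls are a description. Rfx2, a ciliary transcription factor gene, had a mean signal of 270 in ES-LIF(+) and 19 in CM (log2 change -3.03, adjusted p from limma 2.32e-06).

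Foxk2, which recruits SIN3 and BAP1 complexes, read 1394.6, 1410.9 and 1140.1 in ES-LIF(+), 1236.8, 1097.7 and 1239.5 in ES-LIF(-), 1733.4, 1866 and 1593.9 in CP, and 2014.4, 2035.2 and 1963 in CM. The stem cell stages overlapped, CP lay above them and CM above CP. The change of 0.61 in CM (SE 0.096, adjusted p from limma 5.7e-05) was called only for the brightest of its 5 tested probe sets. The others changed by -0.28 to 0.42 in CP and by -0.11 to 0.47 in CM, the -0.28 with an adjusted p of 0.0401. The CM call of Foxk2 was lost under median centring (0.29), over the mean of probe sets (0.26) and without ES-LIF(+) array 3. Foxk1, its close relative, was not called, at 0.43 in CM (95% interval 0.08 to 0.77, adjusted p 0.0312, under the fold). Of 9 tested genes for partners of FOXK, 3 were lower and 0 higher in CP (0 higher at an unadjusted p under 0.05 in limma and 0 by the analysis of variance), and 5 lower and 1 higher in CM. The shares of all tested genes were 13.3% lower and 18.7% higher in CP, and 23.9% and 25.7% in CM. The SIN3 subunit gene Sap30 was lower, at -0.83 in CP and -1.53 in CM, and Srf, the serum response factor gene of muscle, was the one called higher in CM (1.14, adjusted p 3.5e-07).

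Foxb1 and Foxa1 were dim, and each was called against ES-LIF(+) in a single stage. Foxb1, a factor of the hypothalamus and hindbrain, read 54.7, 84 and 57.1 in ES-LIF(+), 77, 62.7 and 135.4 in ES-LIF(-), 154.6, 157.2 and 159.9 in CP, and 81.6, 88.1 and 119.3 in CM. The CP arrays lay close together above all others. Foxb1 exceeded the array median only on these and on the ES-LIF(-) array at 135.4. It thus passed the filter through CP, and its rise there is a description. The change was 1.11 in CP (SE 0.30, adjusted p from limma 0.00699) and 0.47 in CM (95% interval -0.17 to 1.11, adjusted p 0.191).

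Foxa1, a pioneer factor of endoderm, read 12.9, 56.5 and 13 in ES-LIF(+), 91.7, 35.4 and 10.8 in ES-LIF(-), 55.3, 22.2 and 179 in CP, and 180.8, 136.2 and 132.1 in CM. The CM arrays stood above all stem cell arrays, and the CP arrays overlapped every other stage. The change was 2.06 in CM (SE 0.62, 95% interval 0.75 to 3.38, adjusted p from limma 0.00917), lost in the analysis of variance, and 1.04 in CP (-0.27 to 2.36, adjusted p 0.181). Of 3 tested endoderm markers, 1 was called higher in CP and 2 in CM, and 1 of the 3 exceeded the array median on no stem cell array. The summed signal over 8 endoderm genes was 331 to 550 in ES-LIF(+), 1128 to 1409 in CP and 1058 to 2372 in CM. Foxa3, of liver and gut, had mean signals of 175 in ES-LIF(+), 200 in ES-LIF(-), 150 in CP and 133 in CM and was called in no comparison. Its change was -0.36 in CM (95% interval -0.78 to 0.06), although median centring called it lower (-0.68).

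Foxl2, a factor of the ovary, and Foxj3, expressed in muscle and testis, did not pass the F test (adjusted p 0.34 and 0.0691). Foxl2 read 318.5 to 591.1 over all arrays and Foxj3 868.3 to 1570. Over the mean of its probe sets, which takes in a dimmer probe set, Foxl2 was called higher in CM (1.0, adjusted p from limma 0.00314).

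The 9 members below the array median in every stage were Foxb2, Foxd1 of kidney stroma, Foxd2, Foxd4, Foxe3 of the lens, Foxi1 of inner ear and kidney ionocytes, Foxl1, Foxn1 of thymic epithelium and Foxp3. Of these, 7 were below on all 12 arrays, and Foxn1 and Foxp3 exceeded the median on 1 array each. Foxn1 read 52.9 to 91.8 in ES-LIF(+) and 114.3 to 151.9 in CM, while the array medians rose as well. Foxd2 read 60.4 to 93.3 in ES-LIF(+) and 20.6 to 29.6 in CM, with no overlap. Foxd2 and Foxe3 are adjacent on chromosome 4. No test was made on these genes, and a signal below the median does not show that a gene was silent.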

How the data were processed

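The values are those of 12 Affymetrix Mouse 430 2.0 arrays, with the 4 stages represented by 3 arrays apiece and grouped by the labels. The authors deposited linear signal intensity values per probe set, made with MAS5 per the labels and scaled to a 2% trimmed mean of 500 on each array, so only relative levels are kept. Detection flags and scanner images were not used here. Of 45101 probe sets, 64 control probe sets were set aside, which left 45037. The signals were not rescaled and entered as log2(signal + 16), and a fold change understates the change of dim genes on that scale. A probe set was tested when it exceeded its array's median on at least 3 of 12 arrays, which 26083 did.

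A linear model of the 12 arrays (limma 3.58.1, R 4.3.3), moderated with a trend on intensity, was read as an F test over the 4 stages and as contrasts, and p values were adjusted by the Benjamini-Hochberg method over all tested probe sets. Calls were made at a fold above 1.5 with the adjusted p under 0.05. Intervals are 95% intervals of the fit. The platform annotation names 1 gene for 34945 probe sets, several for 932 and none for 9160. A gene was read from its brightest single-gene probe set by mean log2 value, and 13145 of 18193 genes were tested this way. A member was counted as dim when the mean of log2(signal + 16) lay below the array median in all 4 stages. The number of arrays limits the precision.

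The study used a one-way analysis of variance in Genespring GX 7.3 at a fold above 1.5, which here is an alternative. The members, the lists of connected genes and the marker lists were chosen with earlier results of these data known. All members are named, and of each list the 4 called genes with the largest change in a comparison could be named. Flanking genes and the comparison of CP with ES-LIF(-) were added after the values were seen. So were probe sets beyond the brightest, given for Foxp1, Foxp2, Foxk2, Foxm1, Foxn3 and Foxo1. Alternatives covered scaling, pseudocounts of 1 and 64, the fold threshold, the filter, the test with and without its trend, the stages fitted, the mean over probe sets, each array left out in turn and a replicate block. The procedure was tested on simulated data. Promoter sequences came from RefSeq, GRCm38.p6.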

Additional observations from a re-analysis of the deposited data

How the results depend on the processing

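Of 44 calls of a member in a comparison, 21 held under every alternative that tested the gene, 23 were lost under at least 1, and 0 reversed. There were 25 alternatives, of which 24 tested Foxa1 and Foxp2 and 23 tested Foxf2. With 3 arrays per stage and signals near background, calls of dim members (Foxa1, Foxb1, Foxc2, Foxf2, Foxs1) rest on few arrays above the median. The counts across the F test and in CP or CM against ES-LIF(+) stayed within 1.5 times their values under each alternative run.

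In CP against ES-LIF(-), members called higher were 3 under median centring and 3 under quantile normalization in place of 6, and members called lower were 9 under median centring, 8 with no fold threshold, 2 at a fold of 2 and 3 over the mean of probe sets in place of 5. On LIF withdrawal, members called lower were 1 with no fold threshold in place of 0, and members called higher were 0 at a fold of 2 (5 at an unadjusted p under 0.05 in limma with no fold asked) and 1 over the mean of probe sets in place of 3. From CP to CM, 1 was called higher and 1 lower at a fold of 2 in place of 4 and 3. The cause was not tested, apart from the fold thresholds, which act by construction.

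Leaving out each array in turn gave 16 to 19 members changed in the F test, 5 to 7 higher and 3 to 4 lower in CP, 8 to 9 higher and 3 to 4 lower in CM, 2 to 3 higher and 0 to 0 lower on LIF withdrawal, 1 to 4 higher and 2 to 3 lower from CP to CM, and 4 to 7 higher and 4 to 6 lower in CP against ES-LIF(-). From CP to CM the members called higher were 2 without CP array 2, 1 without CM array 1 and 2 without CM array 2. The members below the median in all stages were 9, 7 when each array was asked and 11 over the mean of probe sets.

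Replicate numbers are shared by the stages, but residuals of same-numbered arrays correlated between -0.05 and 0.10 and 3 of 12 arrays correlated best with their own number, so the numbers were not taken as pairs. With the replicate number as a block, 18 members changed in the F test, 6 were higher and 4 lower in CP, 9 and 4 in CM, 3 and 0 on LIF withdrawal, 4 and 3 from CP to CM, and 6 and 5 in CP against ES-LIF(-), and no call of a member changed.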
